A study of Mus musculus with 6 samples.

Results

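Class 3 semaphorins, Slits and the receptors that bind them were followed as 10 genes, taken by symbol from the 31053 genes of the count tables: the secreted ligands Sema3a, Sema3c, Sema3d, Sema3f, Slit2 and Slit3, the neuropilin co-receptors Nrp1 and Nrp2, the plexin Plxnd1 and the Slit receptor Robo1. All 10 were found in every library. The data are transcript counts in unique molecular identifiers (UMIs) from 10x single-cell RNA sequencing of stromal vascular cells of inguinal white adipose tissue (iWAT), depleted of CD45+ immune cells and sampled to follow cell states during beiging at 2 ages. Male C57BL/6 mice, 9 weeks (young) or 57 weeks (aged) old at the end of housing, were first kept at 30 °C for 3 weeks. The TN groups then stayed at 30 °C for 2 weeks, the 3D cold groups spent the last 3 days of these at 6 °C, and the 14D cold groups spent all 14 days at 6 °C. There was 1 library for each of the 6 groups, no transgene or drug was used, and the number of mice behind a library was not stated, though the methods say that mice were kept separate where nothing else is noted. Each age was therefore repeated only over 3 temperatures and each temperature only over 2 ages. A p-value below measures the spread between these libraries. Mice were obtained from either of 2 suppliers with different substrains, and which of them went into which library was not stated. The part of supplier or substrain in the age differences below was not tested.

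Class 3 semaphorins are secreted guidance cues that bind neuropilins, which pass the signal on through plexins, and Sema3e is unusual in binding Plxnd1 directly. Slits are large secreted proteins of the matrix that bind Robo receptors. Both families were found as repellents of growing axons and also act on endothelial cells, and in adipose tissue a fragment of Slit2 has been linked to the thermogenic programme, while Sema3c is a marker of the Dpp4+ interstitial progenitors.

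In the mouse genome (GRCm38, GENCODE annotation), all 10 are protein-coding genes. Of the ligands, 4 lie on chromosome 5: Sema3d from 12383385 to 12588948, Sema3a from 13125414 to 13602565, Sema3c from 17574281 to 17730268 and Slit2 from 47983138 to 48307733, each on the plus strand. Slit3 lies on chromosome 11 from 35121224 to 35708507 on the plus strand, and Sema3f on chromosome 9 from 107681500 to 107710475 on the minus strand. Nrp1 was annotated on chromosome 8 from 128358604 to 128503363, Nrp2 on chromosome 1 from 62703285 to 62818695 and Robo1 on chromosome 16 from 72308306 to 73046095, all 3 on the plus strand. Plxnd1 lies on chromosome 6 from 115954811 to 115995005 on the minus strand.

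The promoters of the 4 genes on which the age comparison turns are shown as the 250 bases before the RefSeq start (GRCm38.p6), all on the plus strand, at chr5:13396534-13396783 for Sema3a, chr5:12382916-12383165 for Sema3d, chr1:62703067-62703316 for Nrp2 and chr5:47982905-47983154 for Slit2. Capitals mark 4 motifs searched on both strands, the GC box (GGGCGG), the CCAAT box (CCAAT), the TATA box (TATAAA) and an E-box (CACGTG), so that ATTGG is a CCAAT box on the other strand.
Sema3a: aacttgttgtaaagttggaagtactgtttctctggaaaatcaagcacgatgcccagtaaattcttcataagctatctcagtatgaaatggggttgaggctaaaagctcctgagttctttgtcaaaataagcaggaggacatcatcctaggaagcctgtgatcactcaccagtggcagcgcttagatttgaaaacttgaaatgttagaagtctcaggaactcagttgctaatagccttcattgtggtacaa
Sema3d: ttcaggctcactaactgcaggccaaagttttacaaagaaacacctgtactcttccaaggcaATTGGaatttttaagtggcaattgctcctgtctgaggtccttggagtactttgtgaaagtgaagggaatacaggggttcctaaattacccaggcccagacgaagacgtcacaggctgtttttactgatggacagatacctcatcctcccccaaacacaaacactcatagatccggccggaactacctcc
Nrp2: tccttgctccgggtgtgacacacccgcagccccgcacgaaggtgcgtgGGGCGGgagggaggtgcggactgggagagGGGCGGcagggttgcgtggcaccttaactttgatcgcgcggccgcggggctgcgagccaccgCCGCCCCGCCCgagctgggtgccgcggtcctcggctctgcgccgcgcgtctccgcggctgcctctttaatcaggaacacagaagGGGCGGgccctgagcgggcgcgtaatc
Slit2: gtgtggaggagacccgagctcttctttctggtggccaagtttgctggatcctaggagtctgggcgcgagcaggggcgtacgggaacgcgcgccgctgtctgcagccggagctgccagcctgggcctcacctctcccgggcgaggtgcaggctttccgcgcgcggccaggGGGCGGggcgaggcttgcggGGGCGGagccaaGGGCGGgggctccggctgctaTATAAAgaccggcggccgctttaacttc
The promoters of Nrp2 (72.4% G or C) and Slit2 (69.6%) hold 5 and 3 GC boxes, and that of Slit2 also a TATA box 28 bases before the start. Those of Sema3a (40.8%) and Sema3d (46.8%) hold no GC box, and the window of Sema3d holds 1 CCAAT box. Of the windows not shown, Slit3 (78.8%) holds 6 GC boxes, Sema3c (78.4%) 3, and Plxnd1 (64.8%) and Nrp1 (64.4%) 1 each. GC boxes did not divide the members by direction with age, since Sema3c and Plxnd1 were each lower in 1 aged class. The RefSeq start of Sema3a lies 271370 bases downstream of the first base GENCODE gives, so its window is that of an inner start. Of the 9 members with a window, 6 held a GC box, 1 a CCAAT box, 1 a TATA box and 0 an E-box, against 32.7%, 33.8%, 12.4% and 6.02% of all 32851 windows. A match of letters is a description and not a bound site.

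Of 68103 barcodes, 57326 cells were kept, and 524 of 67565 barcode sequences occurred in more than 1 library. The young libraries held 87219354 to 88508349 UMIs and the aged ones 52068837 to 74590296. Median UMIs per barcode were 7225 to 8954 in young and 2588 to 6540 in aged libraries, so depth went with age. Apart from fits with equal cells thinned to 2000 UMIs, given below, the part of depth in the age differences was not tested. Aged 14D cold stood apart, with a median of 2588 UMIs per barcode against 6232 to 8954 in the other 5 libraries, and 49.7% of its cells fell in clusters that got no name against 8.51% to 29.2%. Classes were rebuilt here by clustering and named only from marker lists, so Dpp4+ fibroblasts, Icam1+ preadipocytes, Cd142+ fibroblasts (together the adipose stem and progenitor cells, ASPCs), endothelial cells and smooth muscle cells or pericytes (SMC/pericytes) below stand for cells like these. Cluster 0, of 7943 cells, expressed 5 of the 10 Dpp4+ markers, but its leading genes held none of them and 1 Cd142+ marker, so after the data had been seen it was left out of the Dpp4+ class and is given by number. In aged 14D cold, 54.3% of Dpp4+ fibroblasts came from cluster 9 and 34.1% of Icam1+ preadipocytes from cluster 12, against 5.75% to 12.4% and 0.386% to 1.30% in the other libraries. Other libraries differed in make-up too: in aged TN, 78.3% of Dpp4+ fibroblasts came from cluster 2 (45.2% to 52.9% in young libraries) and 31.7% of Icam1+ preadipocytes from cluster 6 (13.2% to 18.2%). Cluster 8 gave 5.27% to 18.3% of Dpp4+ fibroblasts in aged and 20.8% to 26.5% in young libraries, and the 10 Dpp4+ markers summed to 6561 to 7204 CPM in aged and 7965 to 9205 CPM in young Dpp4+ fibroblasts, with no overlap in either. Of the 21 age, temperature and population differences that passed the threshold below, 18 also did so without aged 14D cold. RNA set free by broken cells adds UMIs of abundant genes to every class. The class named Schwann cells (cluster 19, 400 cells) met all 8 markers of its list, but Spp1 and Sfrp5 were also among its leading genes. In it, 5 fibroblast genes summed to 33600 to 47420 CPM, against 28199 to 46645 CPM in Cd142+ fibroblasts. The part of fibroblasts in the levels given below for Schwann cells was not tested.

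The levels of each gene, given in CPM (a gene's UMIs in a class of a library, scaled to a common total) and as mean ± SD over the 6 libraries, separated the classes more than the ages. Sema3c was highest in Dpp4+ fibroblasts at 762 ± 68.3 CPM, above SMC/pericytes (153 ± 58.9 CPM) in 6 of 6 libraries with no overlap. Dpp4+ markers summed to 816 to 2387 CPM in SMC/pericytes. In clusters 13 and 16, which make up that class, 18.5% and 38.8% of cells had a high doublet score. The part of Dpp4+ RNA and doublets in the SMC/pericyte level was not tested. With every cell thinned to 2000 UMIs, 73.4% of Dpp4+ fibroblasts held a Sema3c UMI, against 18.2% of Cd142+ fibroblasts, 4.41% of Icam1+ preadipocytes and 2.34% of endothelial cells. The Icam1+ share lay below that of immune cells (7.31%), with a median depth before thinning of 8245 UMIs in Icam1+ and 5163 UMIs in immune cells, and is not read as expression. The immune cluster is no clean measure of free RNA, since 22.5% of its cells had a high doublet score. Unthinned, the shares were 95.9% in Dpp4+, 39.9% in Cd142+, 14.0% in Icam1+ and 14.4% in immune cells, and thinning left out 99 Dpp4+ and 81 Icam1+ cells.

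Sema3d and Sema3a, both ligands with strong effects on vessels in the embryo, were highest in the small group of lymphatic endothelial cells (87 cells), at 270 ± 65.3 CPM and 293 ± 80.6 CPM. In these cells 31.0% (exact Clopper-Pearson 95% interval 21.5% to 41.9%, counting error only) held a UMI of Sema3d and the same share one of Sema3a. Mesothelial or epithelial genes summed to 3930 CPM there in young TN and 4956 CPM in aged TN and to 0 to 193 CPM in the other 4 libraries, and their part in these levels was not tested. Sema3d was next in Dpp4+ fibroblasts at 43.5 ± 14.4 CPM, above Schwann cells (14.0 ± 8.81 CPM) in 6 of 6 libraries. Sema3a was next in Schwann cells (9.19 ± 5.84 CPM), Icam1+ preadipocytes (8.68 ± 0.557 CPM) and Dpp4+ fibroblasts (8.31 ± 2.08 CPM), whose ranges overlapped.

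Sema3f, a ligand that binds Nrp2 with preference, was a gene of vessel cells, at 77.7 ± 41.3 CPM in lymphatic endothelial cells, 58.3 ± 9.37 CPM in endothelial cells and 11.7 ± 4.19 CPM in SMC/pericytes. The first of these did not stand apart from the second, being higher in 4 of 6 libraries. In Dpp4+ fibroblasts, Sema3f was near absent, with 2 to 8 UMIs per library.

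Slit3 was broadest, at 289 ± 19.7 CPM in Cd142+ fibroblasts, 261 ± 36.4 CPM in Icam1+ preadipocytes, 212 ± 17.5 CPM in Dpp4+ fibroblasts and 162 ± 24.3 CPM in SMC/pericytes. Each of these ranges overlapped with the next, although Icam1+ preadipocytes lay above Dpp4+ fibroblasts in 6 of 6 libraries. Slit2 was sparse, at 18.0 ± 14.3 CPM in Schwann cells, 15.7 ± 8.08 CPM in Icam1+ preadipocytes, 9.49 ± 4.42 CPM in Cd142+ fibroblasts and 8.59 ± 1.55 CPM in Dpp4+ fibroblasts. Only 2.73% of thinned Icam1+ preadipocytes held a Slit2 UMI, against 0.0826% of endothelial cells and 0 of 342 immune cells, a count compatible with a share as high as 0.877%.

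Of the receptors, Nrp1 was highest in endothelial cells at 849 ± 63.9 CPM, far above Cd142+ fibroblasts (196 ± 22.2 CPM), SMC/pericytes (187 ± 44.2 CPM) and Icam1+ preadipocytes (165 ± 24.0 CPM). Dpp4+ fibroblasts had 31.0 ± 3.97 CPM of Nrp1, below every class but the lymphatic cells. Nrp2, the neuropilin known from lymphatic vessels, was highest in lymphatic endothelial cells (256 ± 43.6 CPM) and endothelial cells (174 ± 21.6 CPM), and the 3 ASPC classes were lowest, at 12.3 ± 6.53, 11.4 ± 5.58 and 8.35 ± 4.28 CPM in Icam1+, Cd142+ and Dpp4+ cells.

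Plxnd1, the plexin of vessels, was likewise highest in endothelial cells, with 130 ± 19.1 CPM, above SMC/pericytes (63.0 ± 13.2 CPM) in 6 of 6 libraries and lowest in Dpp4+ fibroblasts (3.77 ± 1.38 CPM). Robo1 was highest in lymphatic endothelial cells (75.3 ± 27.6 CPM), followed by Dpp4+ fibroblasts (27.4 ± 3.86 CPM) and Icam1+ preadipocytes (15.4 ± 2.30 CPM), and these 3 ranges did not overlap.

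**Figure D1:**
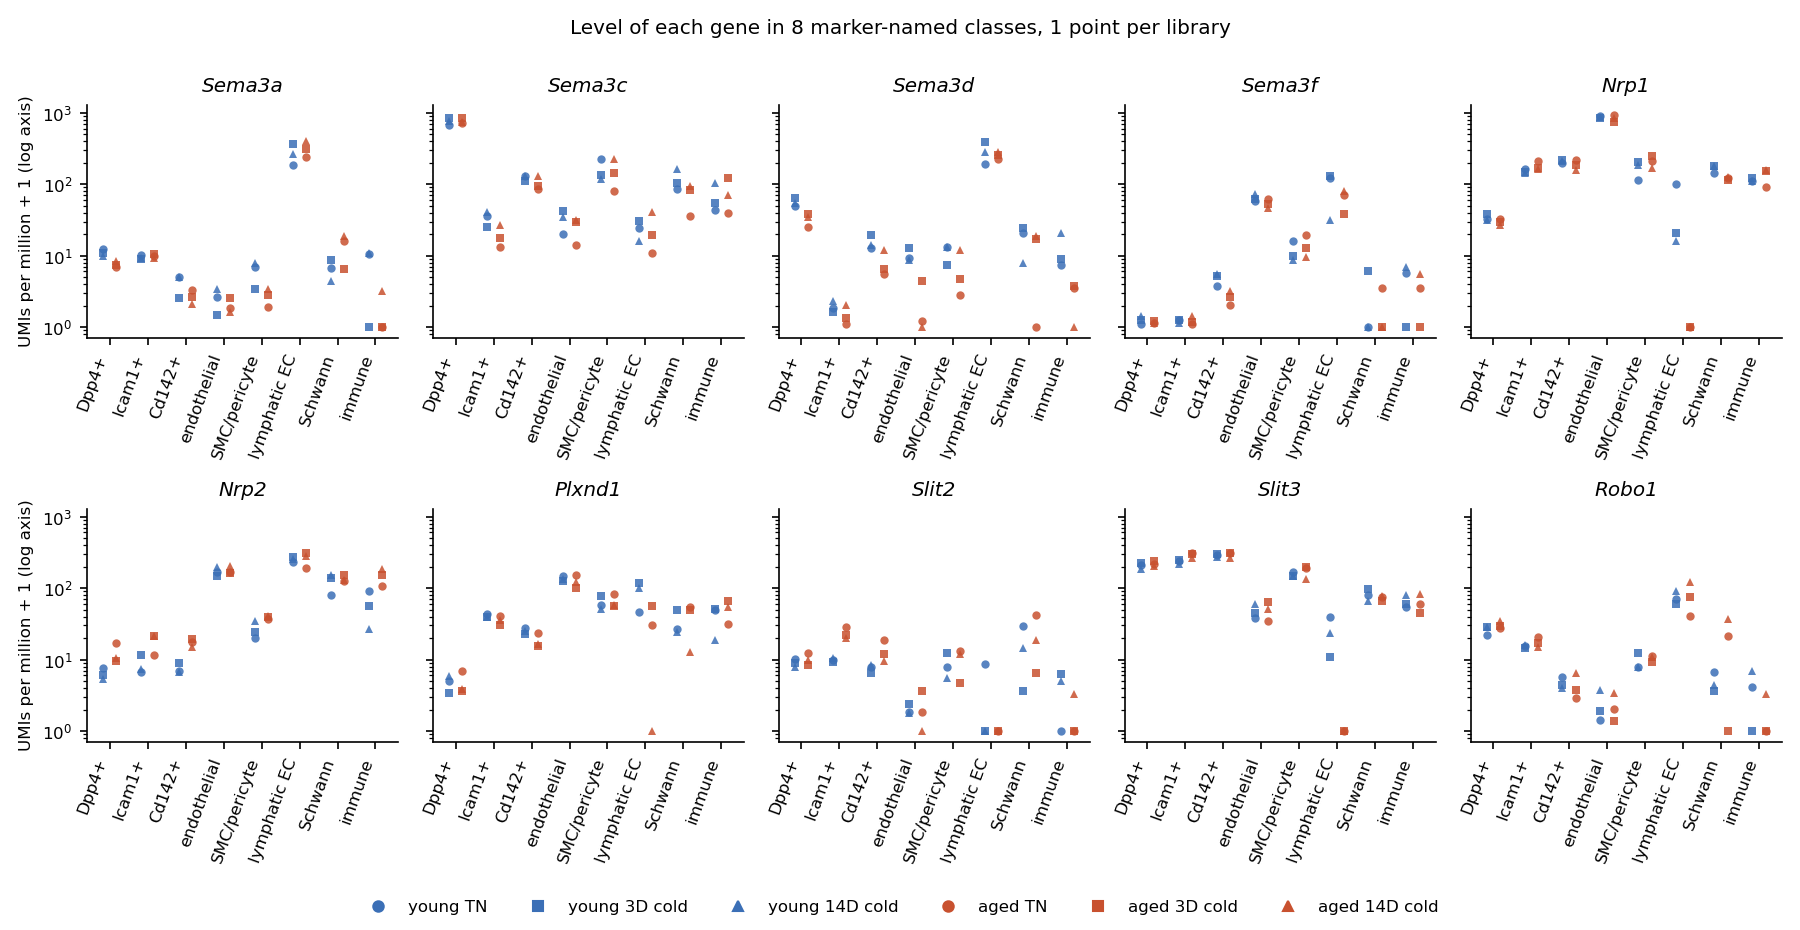
Each panel shows 1 gene, with its level in CPM plus 1 on a log axis for 8 classes and 1 point per library (blue young, red aged, with circles for TN, squares for 3D cold and triangles for 14D cold). Sema3c stands highest in Dpp4+ cells, Nrp1 and Plxnd1 in endothelial cells, and Sema3a and Sema3d in lymphatic endothelial cells (lymphatic EC).

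Age was compared with edgeR's quasi-likelihood F test on the UMIs summed per library and class, with temperature as a term, and with Benjamini-Hochberg adjustment over all genes of a class at a threshold of 0.05. In Dpp4+ fibroblasts, 3 of the 9 members tested changed with age, 1 higher and 2 lower in aged cells, while 13.3% of all genes tested did so (6.39% higher and 6.91% lower). In Icam1+ preadipocytes 5 of 9 changed, 4 higher and 1 lower, against 14.2% of all genes (7.78% higher and 6.42% lower). In Cd142+ fibroblasts 5 of 10 changed, 2 higher and 3 lower, against 12.2% of all genes (6.43% higher and 5.73% lower). The median log2 fold change of the members was 0.01 in Dpp4+, 0.22 in Icam1+ and -0.27 in Cd142+ cells, while that of all genes was 0.00 in each class. The 3 libraries of 1 age lay wholly above or below those of the other for 3, 4 and 4 of the members tested in Dpp4+, Icam1+ and Cd142+ cells, against 22.4%, 22.9% and 24% of all genes tested. On simulated counts, false calls made up more of the genes called than the threshold allows in these 3 classes and, by less, in endothelial cells, and most of all in Dpp4+ fibroblasts. Sema3f had too few UMIs to be tested in Dpp4+ and Icam1+ cells.

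**Figure D2:**
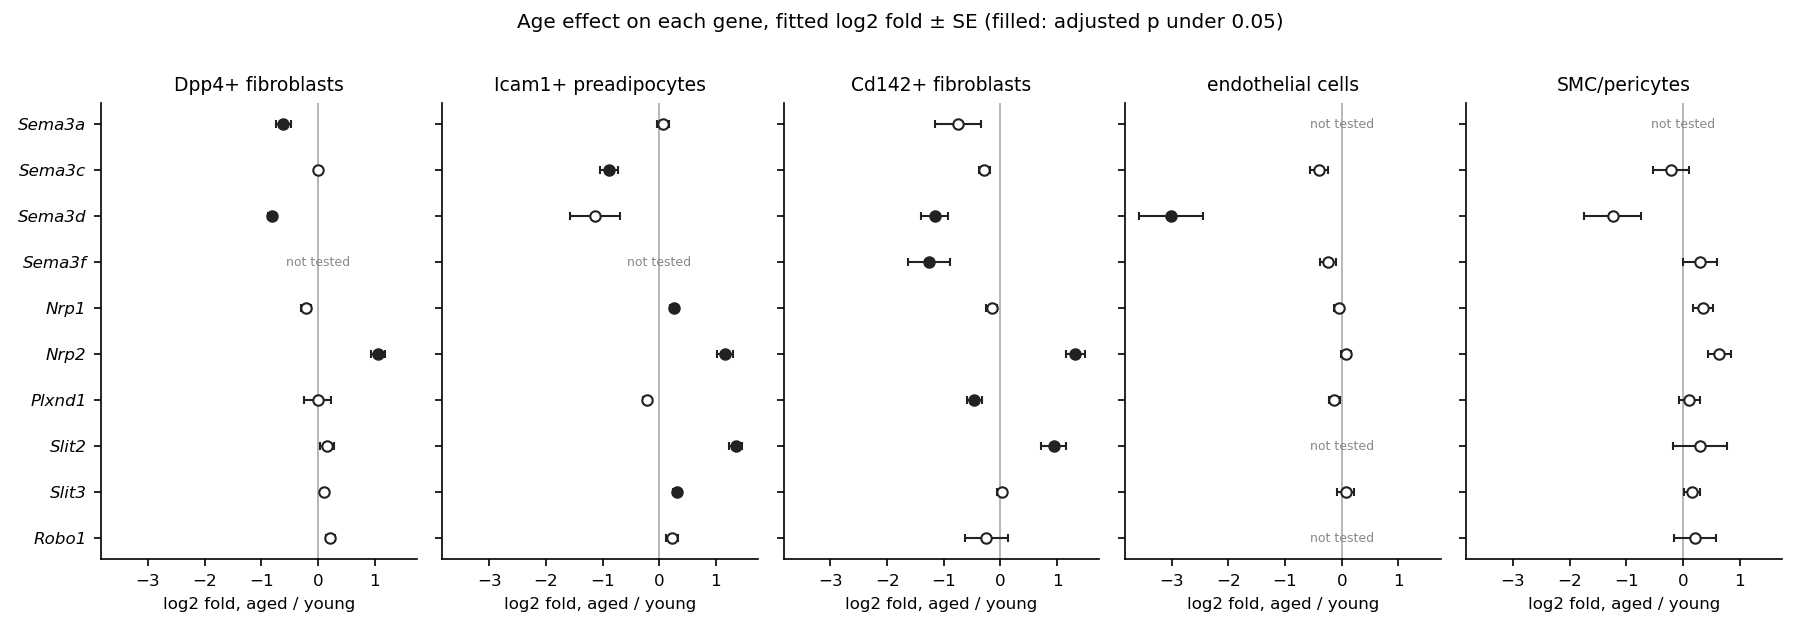
Points are the fitted log2 fold change of aged over young libraries for each gene, bars are ± 1 SE, and filled points had an adjusted p under 0.05. Nrp2 lies to the right of 0 in all 3 ASPC classes, while Sema3d lies to the left in every class tested.

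Sema3c did not pass the age test where it is most abundant. Dpp4+ fibroblasts had 668, 845 and 771 CPM in young and 710, 829 and 749 CPM in aged libraries (TN, 3D cold and 14D cold, the order used throughout), with a log2 fold change of 0.01 ± 0.06 (SE, adjusted p = 0.961). The 2 ages overlapped. In Icam1+ preadipocytes, Sema3c had 34.8, 24.2 and 40.1 CPM in young and 12.3, 16.6 and 25.8 CPM in aged libraries, and it fell by 0.89 ± 0.16 on the log2 scale (adjusted p = 0.00640). It was lower in the aged library at all 3 temperatures, but aged 14D cold lay above young 3D cold. The fall was 0.37 (adjusted p = 0.123), past the threshold no longer, when cells were classed by their own markers in place of clusters. The call was also lost without temperature as a term (-0.88, adjusted p = 0.145) and with equal thinned cells (-0.71, adjusted p = 0.0518).

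The 10 markers of Dpp4+ fibroblasts moved with Sema3c in the classes where it is low. Their summed level in Icam1+ preadipocytes was 266, 200 and 377 CPM in young and 114, 165 and 218 CPM in aged libraries, with none of the 10 at 0. In Cd142+ fibroblasts the sum was 1034, 775 and 982 CPM in young and 562, 680 and 936 CPM in aged libraries, and Sema3c itself had 131, 110 and 131 CPM and 85.9, 94.2 and 129 CPM. Sema3c did not pass the threshold there (log2 fold change -0.28 ± 0.10, adjusted p = 0.0818), but did so under 5 of 15 alternatives. The order of the 6 libraries by Sema3c in Icam1+ preadipocytes was the same as that by the marker sum. The part of RNA from Dpp4+ fibroblasts in the fall of Sema3c was not tested.

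**Figure D3:**
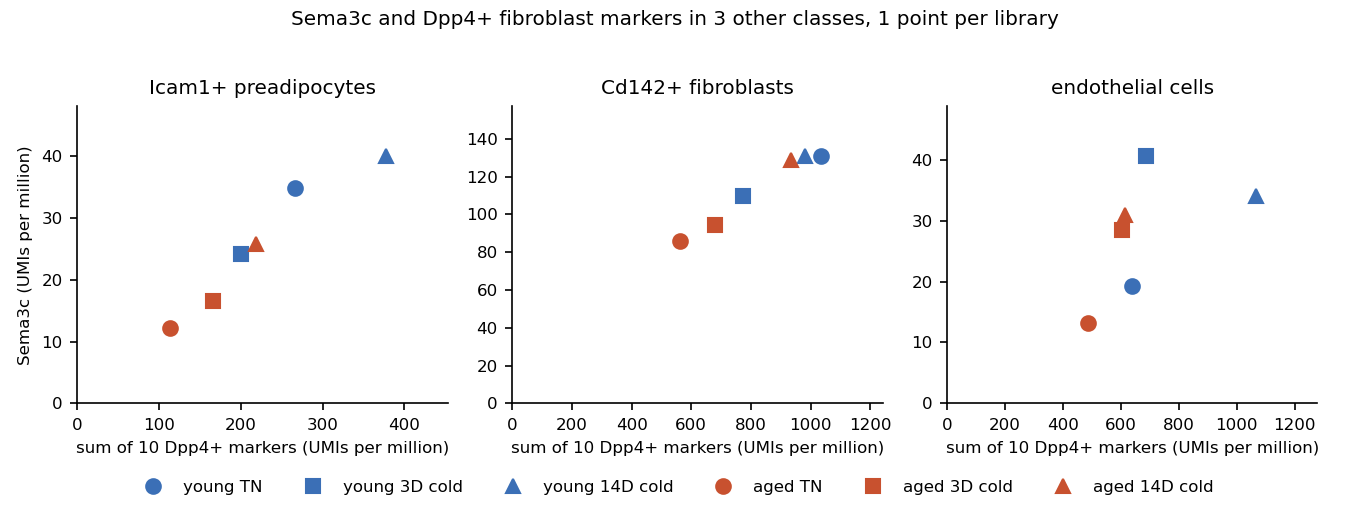
Each point is 1 library, with the summed level of 10 Dpp4+ fibroblast markers on the x axis and Sema3c on the y axis, both in CPM. In Icam1+ preadipocytes, aged TN (114 and 12.3) and young 14D cold (377 and 40.1) form the 2 ends on both axes.

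Sema3d was lower in aged cells in 3 classes. In Dpp4+ fibroblasts it had 49.2, 63.8 and 53.1 CPM in young and 24.4, 36.8 and 34.0 CPM in aged libraries. All aged libraries lay below all young libraries. The log2 fold change was -0.81 ± 0.08 (SE, n = 3 libraries per age, adjusted p = 0.000104 by edgeR), and the call held under all 16 alternatives tried. In Cd142+ fibroblasts, with 72, 122 and 78 UMIs in young and 22, 30 and 30 UMIs in aged libraries, it was -1.16 ± 0.24 (adjusted p = 0.00360). The age gap there was -1.37 and -1.75 at TN and 3D cold but -0.23 at 14D cold, and without aged 3D cold (-0.78, adjusted p = 0.0921) or young 3D cold (-0.77, adjusted p = 0.0846) the call was lost. It was also lost by DESeq2 (-1.13, adjusted p = 0.0639), without temperature as a term (-1.15, adjusted p = 0.0542) and with equal thinned cells (-0.83, adjusted p = 0.325). The Dpp4+ marker sum in Cd142+ fibroblasts, given above, was likewise lower in aged TN and aged 3D cold and close to young at 14D cold, and its part in this difference was not tested. In Icam1+ preadipocytes Sema3d was near absent, with 23, 20 and 36 UMIs in young and 3, 9 and 14 UMIs in aged libraries. The ages overlapped and the threshold was not passed there (-1.13 ± 0.45, adjusted p = 0.128).

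In endothelial cells, Sema3d had 20, 26 and 19 UMIs in young and 1, 9 and 0 UMIs in aged libraries, a log2 fold change of -3.01 ± 0.56 (adjusted p = 0.0223). It was 1 of 7 members called, against 1.29% of all genes. The call was lost without aged TN (-2.31, adjusted p = 0.109) and without young TN (-2.35, adjusted p = 0.140), as well as without temperature as a term (-2.97, adjusted p = 0.126), and with cells classed by their own markers the log2 fold change was -1.37 (adjusted p = 0.299). Dpp4+ markers summed to 638, 685 and 1065 CPM in young and 485, 603 and 613 CPM in aged endothelial cells, and the lymphatic markers to 39.5, 93.4 and 84.6 CPM and 36.7, 147 and 35.0 CPM. Their part was not tested.

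Sema3a, the founding member of the class, was lower in aged Dpp4+ fibroblasts, with 11.2, 9.95 and 8.97 CPM in young and 6.02, 6.33 and 7.40 CPM in aged libraries. No aged library reached a young one, and the gap narrowed from -0.90 at TN to -0.65 at 3D cold and -0.28 at 14D cold. The fitted log2 fold change was -0.61 ± 0.13 (adjusted p = 0.0135). It was not past the threshold without aged 3D cold (-0.58, adjusted p = 0.0616), young 3D cold (-0.58, adjusted p = 0.0701) or young TN (-0.46, adjusted p = 0.0509). It also missed it by DESeq2 (-0.60, adjusted p = 0.0857), with equal thinned cells (-0.61, adjusted p = 0.155) and without high doublet scores (-0.47, adjusted p = 0.0772). In Icam1+ preadipocytes, with 8.05 to 9.13 CPM in young and 8.27 to 9.42 CPM in aged libraries, Sema3a gave 0.07 ± 0.11 (adjusted p = 0.717).

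Sema3f was tested in 1 ASPC class. In Cd142+ fibroblasts it had 17, 28 and 27 UMIs in young and 5, 9 and 6 UMIs in aged libraries, with no overlap in CPM, and it fell by 1.26 ± 0.36 on the log2 scale (adjusted p = 0.0310). The adjusted p passed 0.05 when any single library was left out, with log2 fold changes from -1.38 (without aged 14D cold, adjusted p = 0.0524) to -1.19 (without young 3D cold, adjusted p = 0.193), so the call rests on all 6. It was also lost by DESeq2 (-1.27, adjusted p = 0.466), without temperature as a term (-1.30, adjusted p = 0.0771) and with cells classed by their own markers (-1.17, adjusted p = 0.0558). In endothelial cells, where the gene is abundant, 56.8, 61.7 and 72.9 CPM in young and 61.5, 51.1 and 46.1 CPM in aged libraries gave -0.24 ± 0.14 (adjusted p = 0.539).

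Slit2 was higher in aged Icam1+ preadipocytes, with 239, 266 and 260 UMIs in young and 801, 552 and 261 UMIs in aged libraries, or 8.73, 8.30 and 9.48 CPM against 27.8, 21.0 and 18.9 CPM. All aged libraries lay above all young ones. The log2 fold change was 1.35 ± 0.12 (adjusted p = 0.000203, 2.54-fold), past the threshold under all 15 alternatives, and 1.50 without aged 14D cold. The share of thinned cells with a Slit2 UMI was 1.46%, 1.63% and 1.40% in young and 4.41%, 3.58% and 3.59% in aged libraries, and unthinned it was 5.76% to 6.08% and 10.2% to 14.9%.

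In Cd142+ fibroblasts, Slit2 was 6.75, 5.49 and 7.50 CPM in young and 17.7, 11.0 and 8.51 CPM in aged libraries, a log2 fold change of 0.94 ± 0.22 (adjusted p = 0.00833). The ages did not overlap, though the gap was 1.39 at TN and 0.18 at 14D cold, and the call was lost without aged 3D cold (0.90, adjusted p = 0.0513), aged TN (0.65, adjusted p = 0.0964) or young TN (0.65, adjusted p = 0.0795). DESeq2 (0.89, adjusted p = 0.228), the fit without temperature as a term (0.96, adjusted p = 0.0685) and equal thinned cells (0.70, adjusted p = 0.385) lost it too. In Dpp4+ fibroblasts the ages overlapped, at 6.98 to 9.32 CPM in young and 7.30 to 11.2 CPM in aged libraries (0.16 ± 0.12, adjusted p = 0.428). Slit2 passed the threshold in Dpp4+ fibroblasts under 3 of 16 alternatives. These were resolution 0.5 (0.40, adjusted p = 0.0245), cells classed by their own markers (0.45, adjusted p = 0.0208) and cluster 0 added to that class (0.40, adjusted p = 0.0298). The last was chosen after seeing the data.

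Slit3 was higher in aged Icam1+ preadipocytes by a smaller margin, at 236, 246 and 216 CPM in young and 307, 301 and 260 CPM in aged libraries, which did not overlap. The log2 fold change was 0.31 ± 0.07 (adjusted p = 0.0129), and it missed the threshold without aged 3D cold (0.32, adjusted p = 0.0826) or young 3D cold (0.32, adjusted p = 0.0901), and without temperature as a term (0.32, adjusted p = 0.148). In Dpp4+ and Cd142+ fibroblasts Slit3 gave 0.10 ± 0.06 and 0.02 ± 0.08 (adjusted p = 0.285 and 0.896).

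Nrp2 was the member that changed in all 3 ASPC classes, each time higher in aged cells with no overlap of the libraries. Dpp4+ fibroblasts had 6.72, 5.03 and 4.32 CPM in young and 16.1, 8.55 and 9.39 CPM in aged libraries, a log2 fold change of 1.06 ± 0.13 (adjusted p = 0.000405). Icam1+ preadipocytes had 5.66, 10.6 and 6.41 CPM in young and 10.7, 20.5 and 20.2 CPM in aged libraries, a log2 fold change of 1.16 ± 0.14 (adjusted p = 0.00105). Aged TN stood only just above young 3D cold there.

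Cd142+ fibroblasts had 5.93, 7.93 and 5.67 CPM of Nrp2 in young and 16.6, 18.2 and 14.1 CPM in aged libraries, and the log2 fold change was 1.32 ± 0.17 (adjusted p = 6.37e-05). Each of these 3 calls held whichever library was left out and was lost under 1 alternative: without temperature as a term in Dpp4+ (1.07, adjusted p = 0.0501) and Icam1+ cells (1.16, adjusted p = 0.0952), and with equal numbers of thinned cells in Cd142+ cells (1.15, adjusted p = 0.0869). Markers of endothelial cells, where Nrp2 is far higher, summed to 13.4 to 16.0 CPM in young and 22.7 to 73.4 CPM in aged Cd142+ fibroblasts, to 11.8 to 15.6 and 11.9 to 27.4 CPM in Icam1+ preadipocytes, and to 51.4 to 101 and 65.7 to 85.7 CPM in Dpp4+ fibroblasts. Lymphatic markers summed to 1.81 to 2.81 CPM in young and 3.11 to 8.21 CPM in aged Dpp4+ fibroblasts, to 1.33 to 1.56 and 3.06 to 4.81 CPM in Cd142+ fibroblasts, and to 1.98 to 2.58 and 2.44 to 4.16 CPM in Icam1+ preadipocytes. Schwann cell markers, from a class with 129 ± 26.7 CPM of Nrp2, summed to 62.6 to 72.1 CPM in young and 86.9 to 100.2 CPM in aged Dpp4+ fibroblasts, but were lower in aged Cd142+ fibroblasts (109 to 128 and 94.2 to 99.1 CPM) and overlapped in Icam1+ preadipocytes (175 to 202 and 152 to 223 CPM). Immune cells held 90.7, 55.8 and 26.1 CPM of Nrp2 in young and 104, 150 and 184 CPM in aged libraries, with no overlap. Macrophage genes summed to 6.78 to 14.2 CPM in young and 13.3 to 24.1 CPM in aged Icam1+ preadipocytes, and the ages overlapped in all 3 ASPC classes. The part of all these cell types in the difference was not tested. Endothelial cells themselves held 164, 147 and 196 CPM of Nrp2 in young and 168, 163 and 203 CPM in aged libraries (0.07 ± 0.08, adjusted p = 0.778). In SMC/pericytes the ages did not overlap either, at 18.8 to 33.5 CPM in young and 36.1 to 39.3 CPM in aged libraries. The threshold was not passed there (0.64 ± 0.21, adjusted p = 0.294).

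Nrp1 was higher in aged Icam1+ preadipocytes, at 160, 145 and 143 CPM in young and 209, 169 and 163 CPM in aged libraries, with no overlap and a log2 fold change of 0.26 ± 0.07 (adjusted p = 0.0292). The call was lost without aged 3D cold (0.28, adjusted p = 0.131), aged TN (0.20, adjusted p = 0.0866), young 3D cold (0.29, adjusted p = 0.140) or young TN (0.20, adjusted p = 0.0902). It was lost as well under 4 other alternatives, DESeq2, no temperature term, equal thinned cells and cells classed by their own markers (0.20 to 0.27, adjusted p = 0.0516 to 0.249). In Dpp4+ and Cd142+ fibroblasts it gave -0.20 ± 0.09 and -0.16 ± 0.10 (adjusted p = 0.157 and 0.331). It passed without aged TN in these (-0.32 and -0.31, adjusted p = 0.0169 and 0.0216). Leaving out young TN did the same (-0.32 and -0.31, adjusted p = 0.0198 and 0.0239). In endothelial cells, its main site, it gave -0.05 ± 0.08 (adjusted p = 0.830).

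Plxnd1 was lower in aged Cd142+ fibroblasts, at 26.8, 22.0 and 24.2 CPM in young and 22.7, 14.7 and 15.5 CPM in aged libraries, where aged TN lay above young 3D cold. Its log2 fold change of -0.46 ± 0.13 (adjusted p = 0.0312) was lost without either 14D cold library (-0.40 each, adjusted p = 0.105 without the aged and 0.0985 without the young one) and without either 3D cold library (-0.40 each, adjusted p = 0.176 and 0.162). DESeq2, no temperature term, equal thinned cells, fixed limits on cells and cells classed by their own markers also lost it (-0.50 to -0.20, adjusted p = 0.0702 to 0.477). In Icam1+ preadipocytes it gave -0.22 ± 0.07 (adjusted p = 0.0886), and passed under 3 of 15 alternatives.

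Robo1 passed the threshold in none of the 3 ASPC classes. In Dpp4+ fibroblasts it had 21.1, 27.3 and 27.6 CPM in young and 26.5, 28.8 and 33.1 CPM in aged libraries, which overlapped, although each aged library was above the young one at its temperature (0.22 ± 0.07, adjusted p = 0.0852). Robo1 passed in Dpp4+ fibroblasts under 4 of 16 alternatives. These were resolution 0.5 (0.35, adjusted p = 0.0288), no high doublet scores (0.27, adjusted p = 0.0419), cells classed by their own markers (0.46, adjusted p = 0.0208) and cluster 0 added (0.38, adjusted p = 0.0224). In Icam1+ preadipocytes it passed without aged 14D cold (0.36, adjusted p = 0.0359) or young 14D cold (0.36, adjusted p = 0.0355). In SMC/pericytes 0 of 9 members changed by edgeR, against 0.293% of all genes. Sema3d (-1.24 ± 0.50, adjusted p = 0.395) and Nrp2 (0.64 ± 0.21, adjusted p = 0.294) had the largest log2 fold changes there.

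**Figure D4:**
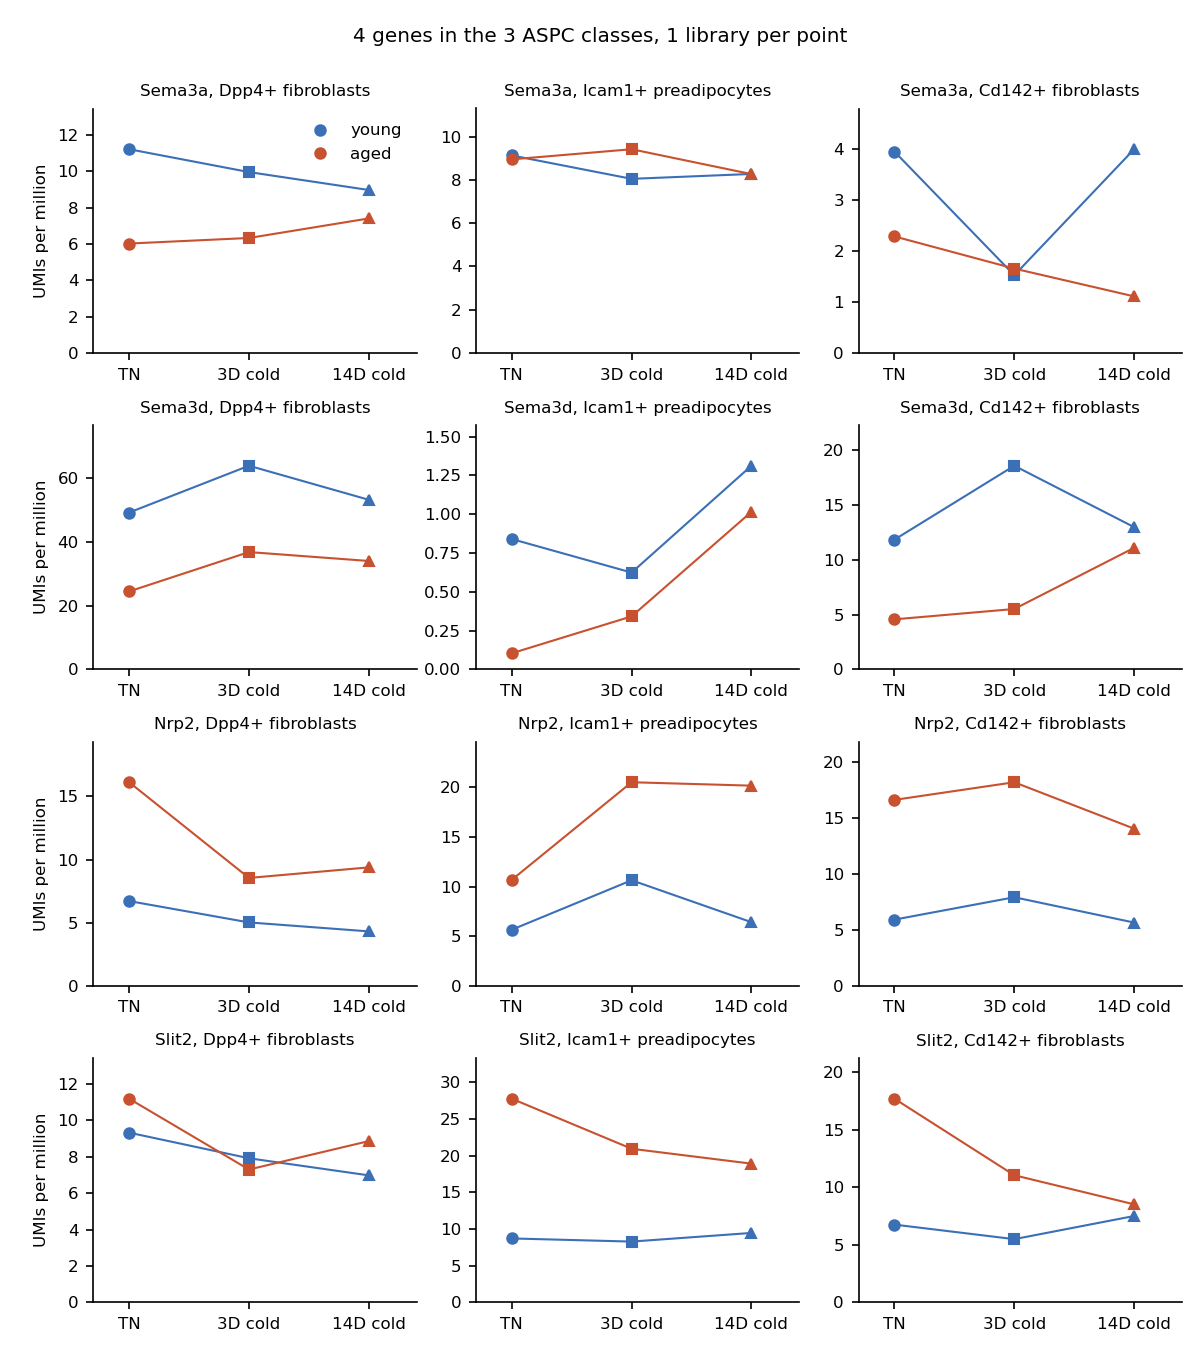
Levels in CPM of 4 genes (rows) in the 3 ASPC classes (columns) at the 3 temperatures, with 1 library per point and lines joining libraries of 1 age (blue young, red aged). Red lies above blue at every temperature for Nrp2 in all 3 classes and for Slit2 in Icam1+ preadipocytes, and below it for Sema3d in all 3 classes. In Icam1+ preadipocytes Sema3d rests on 3 to 36 UMIs per library and did not pass the threshold.

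Whether an age effect differed between populations was tested by edgeR as an interaction with library as a block. Between Icam1+ preadipocytes and Dpp4+ fibroblasts, 1 member differed against 1.65% of all genes: Slit2, whose log2 fold change was larger in Icam1+ cells by 1.17 ± 0.16 (adjusted p = 0.00913). It held whichever library was left out and was lost with equal thinned cells (0.91, adjusted p = 0.234). Sema3a (0.68 ± 0.15, adjusted p = 0.0651), Nrp1 (0.45 ± 0.11, adjusted p = 0.0836) and Sema3c (-0.92 ± 0.27, adjusted p = 0.161) did not pass, and for Nrp2 the difference was 0.08 ± 0.49 (adjusted p = 0.971).

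Between Cd142+ and Icam1+ cells, 2 members differed against 2.04% of all genes. Sema3c fell less in Cd142+ fibroblasts, with a difference of 0.62 ± 0.14 (adjusted p = 0.0308). Nrp1 moved the other way, with a difference of -0.42 ± 0.09 (adjusted p = 0.0361). Sema3c lost the call without aged 3D cold (0.64, adjusted p = 0.0887), aged TN (0.49, adjusted p = 0.0880), young 14D cold (0.50, adjusted p = 0.144) or young TN (0.61, adjusted p = 0.0721). It also lost it with equal thinned cells (0.69, adjusted p = 0.142), fixed limits on cells (0.34, adjusted p = 0.530) and cells classed by their own markers (0.17, adjusted p = 0.744). Resolution 0.5 (0.60, adjusted p = 0.0540) and leaving out high doublet scores (0.56, adjusted p = 0.0586) had the same outcome. Nrp1 lost the call without aged 14D cold (-0.38, adjusted p = 0.0985), aged 3D cold (-0.47, adjusted p = 0.0640), aged TN (-0.42, adjusted p = 0.0699), young 14D cold (-0.39, adjusted p = 0.155) or young 3D cold (-0.36, adjusted p = 0.145). Equal thinned cells (-0.44, adjusted p = 0.101) and cells classed by their own markers (-0.21, adjusted p = 0.340) lost it as well. Between Cd142+ and Dpp4+ fibroblasts 0 of 10 members differed by edgeR, against 0.984% of all genes, and 1, Slit2, had an unadjusted p under 0.05 (0.77 ± 0.23, adjusted p = 0.200).

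Single clusters were then fitted alone, an alternative chosen after seeing the data. Clusters with under 20 cells in any library were not fitted. These were cluster 21 of the Dpp4+ class and cluster 12 of the Icam1+ class, which held 13 to 40 cells in libraries other than aged 14D cold. Nrp2 had a log2 fold change above 0 in all 4 Dpp4+ clusters tested (1.04 to 1.44, 3 past the threshold). The same held in all 3 Icam1+ clusters tested (1.03 to 1.31, 2 past it). Sema3d fell in all 4 Dpp4+ clusters tested, by 0.75 to 0.90 on the log2 scale. Slit2 was higher in all 3 Icam1+ clusters tested (1.35 to 1.53). In the Dpp4+ clusters tested it ranged from -0.48 to 1.08, with cluster 8 past the threshold (adjusted p = 0.0115).

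Cluster 0, which was left unnamed, gave -1.73 ± 0.19 for Sema3a (adjusted p = 4.37e-05), -1.40 ± 0.10 for Sema3d (adjusted p = 1.50e-06), 1.80 ± 0.16 for Nrp2 (adjusted p = 8.08e-06) and 0.96 ± 0.18 for Slit2 (adjusted p = 0.00304). Sema3c (-0.24) and Nrp1 (0.52) also passed the threshold in cluster 0. In the Dpp4+ class, where neither passed, they gave 0.01 and -0.20. Within the named Dpp4+ clusters tested, Sema3a lay between -0.95 and -0.32, and 0 of 4 passed the threshold.

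**Figure D5:**
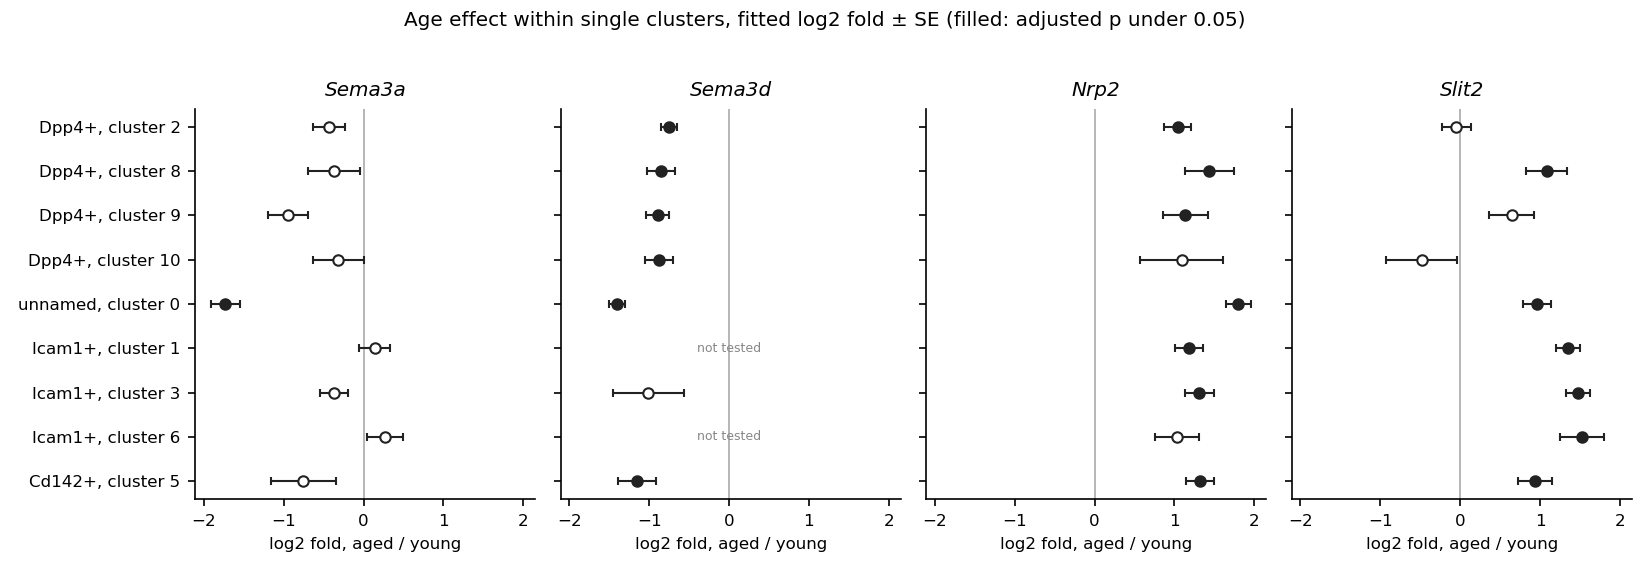
Points are fitted log2 fold changes of aged over young libraries within 1 cluster, bars are ± 1 SE, and filled points had an adjusted p under 0.05. Of the 9 clusters plotted, none of them endothelial, cluster 0 has the lowest value of Sema3a and Sema3d and the highest of Nrp2. Slit2 is above 0 in the 3 Icam1+ clusters plotted, which leave out cluster 12.

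Temperature was tested over its 3 levels with age as a term. In Dpp4+ fibroblasts 2 of 9 members changed, against 5.25% of all genes, and in Icam1+ preadipocytes 1 of 9, against 6.15%. In endothelial cells 1 of 7 changed, against 1.19% of all genes. By edgeR, 0 of 10 changed in Cd142+ fibroblasts (2 at an unadjusted p under 0.05) and 0 of 9 in SMC/pericytes (1 at an unadjusted p under 0.05), against 3.17% and 0.0419% of all genes.

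Nrp2 moved with cold in opposite directions in 2 classes. In Dpp4+ fibroblasts it fell by 0.69 ± 0.15 at 3D cold and 0.71 ± 0.15 at 14D cold on the log2 scale (adjusted p = 0.0300), while in Icam1+ preadipocytes it was higher by 0.94 ± 0.17 and 0.59 ± 0.18 (adjusted p = 0.0320). The Dpp4+ call was lost without aged TN (mean of both cold groups -0.52, adjusted p = 0.242) or aged 3D cold (-0.58, adjusted p = 0.0524), and the Icam1+ call without aged TN (0.57, adjusted p = 0.104) or young 3D cold (0.68, adjusted p = 0.0626). The difference between the 2 classes, a test added after seeing the data, was 1.63 at 3D cold and 1.32 at 14D cold (unadjusted p = 0.000235, adjusted p = 0.539 over 13482 genes). No gene passed the threshold in that edgeR test, and 731 had an unadjusted p under 0.05.

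Sema3d was higher in cold Dpp4+ fibroblasts by 0.46 ± 0.09 at 3D and 0.27 ± 0.10 at 14D (adjusted p = 0.0446). It missed the threshold without aged 3D cold (mean of both cold groups 0.37, adjusted p = 0.128), aged TN (0.25, adjusted p = 0.0758) or young 3D cold (0.38, adjusted p = 0.161). Sema3c in endothelial cells had 19.2, 40.6 and 34.1 CPM in young and 13.1, 28.5 and 30.9 CPM in aged libraries, with both TN libraries below all cold ones, and was higher by 1.11 ± 0.19 and 1.01 ± 0.20 (adjusted p = 0.0256). Without aged 3D cold (1.11, adjusted p = 0.0559), aged TN (0.96, adjusted p = 0.374) or young TN (1.16, adjusted p = 0.154) it did not pass. The Dpp4+ marker sums given above for endothelial cells were also lower at TN than in cold within each age. All 4 temperature calls were lost without age as a term (adjusted p = 0.308 to 0.889). Both Dpp4+ calls and the endothelial one were lost by DESeq2 (adjusted p = 0.0895 to 0.420), and those of Nrp2 in Dpp4+ and Sema3c in endothelial cells with equal thinned cells (adjusted p = 0.0983 and 0.248). The part of the make-up of aged TN, given above, in the Dpp4+ and Icam1+ temperature differences was not tested.

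The genes whose levels were most like a member were sought over 42 library and class sums, by Pearson's r of log2(CPM + 1) among 8603 genes. The 7 classes used leave out lymphatic endothelial cells, where Sema3a, Sema3d, Sema3f, Nrp2 and Robo1 had their highest mean. The genes so found are a description, since the points share libraries and classes. For Sema3c they were Dpp4 (r = 0.967), Pi16 (0.939) and Ildr2 (0.937), and for Sema3d they were Prkg2 (0.852), Pi16 (0.832) and Wnt5b (0.816). The endothelial genes Id1 (0.918) and Esam (0.911) were closest to Sema3f, Cav1 (0.910) to Nrp1, Itga6 (0.915) to Nrp2 and Notch1 (0.911) to Plxnd1. Slit3 was closest to Tmeff2 (0.934), Slit2 to Irak1bp1 (0.862), Robo1 to Adamts5 (0.841) and Sema3a to Rhobtb3 (0.760). Among the members themselves, Plxnd1 and Nrp1 were most alike (0.866).

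The other genes of these pathways were read from 4 lists of 67 genes in the files. Of the 16 other semaphorins, 12 were tested in Dpp4+ fibroblasts, where 2 were higher and 1 lower in aged cells, 12 in Icam1+ preadipocytes (2 higher and 2 lower) and 10 in Cd142+ fibroblasts (3 higher and 0 lower), where 13.3%, 14.2% and 12.2% of all genes changed. Their median log2 fold changes were 0.28, -0.02 and 0.04, beside 0.00 for all genes. Sema3e, the ligand of Plxnd1, was higher in aged Dpp4+ fibroblasts (115 to 166 CPM as means, log2 fold change 0.52 ± 0.06, adjusted p = 0.000318) and Cd142+ fibroblasts (4.04 to 8.84 CPM, 1.12 ± 0.24, adjusted p = 0.00503). Sema4c, a membrane-bound semaphorin, was higher in the same 2 classes by 0.51 ± 0.08 and 0.80 ± 0.09 (adjusted p = 0.00290 and 2.04e-05). Sema4d, another membrane-bound member, was lower in aged Dpp4+ fibroblasts (-1.29 ± 0.21, adjusted p = 0.00305). Sema4a was higher in aged Icam1+ (1.05, adjusted p = 0.00575) and Cd142+ cells (0.84, adjusted p = 0.0235). In Cd142+ cells the ages overlapped, with 6.17 CPM in young and 6.29 CPM in aged 14D cold. In Icam1+ preadipocytes, Sema6a was higher (0.69, adjusted p = 0.00257), and Sema3b and Sema6d were lower (-0.67 and -0.61, adjusted p = 0.0150 and 0.00373). The ages overlapped for Sema3e in Dpp4+ fibroblasts and for Sema6a. Sema3e was among the leading genes of cluster 9, which gave 54.3% of Dpp4+ fibroblasts in aged 14D cold, and the part of this was not tested. Results under the alternatives are given for the members only and not for list genes.

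Of the 12 other plexins, Slits and Robos, Plxna2, a partner of neuropilins, was higher in aged Dpp4+ fibroblasts (4.01 to 7.38 CPM, 0.88 ± 0.14, adjusted p = 0.00214). Plxnc1, sparse in Icam1+ preadipocytes, was lower in aged ones (1.15 to 0.287 CPM, -1.90 ± 0.34, adjusted p = 0.00636). Of the 26 intracellular relays, 23 were tested in Dpp4+ (1 higher, 3 lower), 25 in Icam1+ (3 higher, 2 lower) and 23 in Cd142+ cells (3 higher, 2 lower), beside the same shares of all genes. Pak1, a kinase downstream of Rac and Cdc42, was higher in aged Dpp4+ (1.16 ± 0.17, adjusted p = 0.00135) and Icam1+ cells (1.31 ± 0.14, adjusted p = 0.000569). Enah, an actin regulator that binds Robo, was lower in aged Icam1+ preadipocytes (46.9 to 24.9 CPM, -0.92 ± 0.12, adjusted p = 0.00130) and Cd142+ fibroblasts (-0.33, adjusted p = 0.0422). Crmp1 and Mical2, both relays of semaphorin signals to the cytoskeleton, were higher in aged Icam1+ preadipocytes (3.50 and 1.18, adjusted p = 0.00605 and 0.00281). Crmp1 was near absent there, at 0 to 0.109 CPM in young and 0.590 to 0.759 CPM in aged libraries, and Mical2 was sparse (1.59 to 3.61 CPM as means). Rnd1, a GTPase that binds plexins, was lower in aged Dpp4+ (-0.64, adjusted p = 0.0163) and Cd142+ cells (-0.73, adjusted p = 0.0345). Mical3 and Dpysl3 were lower in aged Dpp4+ fibroblasts (-0.32 and -0.21, adjusted p = 0.0478 and 0.0431), while Srgap1 and Fyn were higher in aged Cd142+ fibroblasts (0.44 and 0.28, adjusted p = 0.00412 and 0.0357). The libraries of the ages overlapped for Dpysl3 in Dpp4+ and for Enah, Srgap1 and Fyn in Cd142+ fibroblasts.

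Of the 13 netrin and repulsive guidance genes in the files, Neo1, which codes for the receptor neogenin, was lower in all 3 aged ASPC classes, from 69.8 to 33.2 CPM in Dpp4+ (-1.08 ± 0.07, adjusted p = 1.11e-05), 38.1 to 23.1 CPM in Icam1+ (-0.72 ± 0.10, adjusted p = 0.00158) and 25.7 to 18.5 CPM in Cd142+ cells (-0.45 ± 0.13, adjusted p = 0.0301). Ntn4, a netrin of basement membranes, was higher in aged Icam1+ (0.80 ± 0.15, adjusted p = 0.00870) and Cd142+ cells (0.76 ± 0.15, adjusted p = 0.00307). Unc5b, a netrin receptor, was higher in aged Icam1+ preadipocytes (0.95, adjusted p = 0.00436). Over the 4 lists, aged Dpp4+ fibroblasts had 4 genes higher and 5 lower of 48 tested, against 7 and 6 of 52 in Icam1+ preadipocytes, and 7 and 3 of 43 in Cd142+ fibroblasts. The shares of all genes that changed were 13.3%, 14.2% and 12.2% in these classes. By edgeR, 0 of 41 in endothelial cells and 0 of 37 in SMC/pericytes changed with age, against 1.29% and 0.293% of all genes.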

How the data were processed

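Single-cell RNA of 6 libraries, 1 per age and temperature, was deposited as raw UMI counts per gene and barcode, which the authors made with Cell Ranger against mm10. The submitters' processing notes also name Seurat and R 4.1.1. Cells with over 200 genes and within 3 median absolute deviations on genes, UMIs and mitochondrial share were kept. Counts were scaled to 10000 per cell, and 6000 variable genes, 15 principal components and 20 neighbours gave Leiden clusters at resolution 1 (scanpy 1.11.5, leidenalg 0.10.2, Python 3.11.15). A cluster was named where at least 3 markers and 50% of a list were detected in 10% of its cells at 1.5-fold over the rest and its leading genes did not go against the name. Doublet scores marked 5230 cells, which were kept and left out as an alternative.

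UMIs were summed per library and class and tested with edgeR 4.0.16 in R 4.3.3 (quasi-likelihood F test, TMM, filterByExpr), leaving 2 residual degrees of freedom, or 4 in the comparison of populations. The study itself tested cells. CPM uses TMM-scaled totals, except marker sums, which use plain totals. Each SE was taken from the absolute log2 fold change over the square root of F. Shares used cells thinned to 2000 UMIs, and their intervals and the floor of 3 counts cover counting error only. Simulated counts were used to try the age test in 5 classes, with the outcome given above. The temperature test, the comparison of populations, DESeq2 and the fits of single clusters were not tried in this way. Alternatives were DESeq2 1.42.0, no filter on low counts, no second factor, equal thinned cells, fixed limits on cells, resolution 0.5, doublets left out, cells classed by their own markers and each library left out.

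The 10 genes were all named, and list genes were named where past the threshold, up to 4 per list and class by size of change. The members and lists were chosen with earlier results of these data known. Promoter sequences are from RefSeq (GRCm38.p6), which held 9 of the 10 genes and not Sema3f. Lymphatic endothelial cells were too few to test. Schwann and immune cells are given by level only.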

Additional observations from a re-analysis of the deposited data

Results flagged for a closer look

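The age effect differed between populations for 3 genes, by edgeR's test of the interaction with library as a block. The log2 fold change of Slit2 was 1.35 in Icam1+ preadipocytes and 0.16 in Dpp4+ fibroblasts, a difference of 1.17 (adjusted p = 0.00913). That of Sema3c was -0.28 in Cd142+ fibroblasts and -0.89 in Icam1+ preadipocytes, a difference of 0.62 (adjusted p = 0.0308). The share of Icam1+ preadipocytes with a Sema3c UMI was not read as expression above. With cells classed by their own markers the difference was 0.17 (adjusted p = 0.744). That of Nrp1 was -0.16 in Cd142+ fibroblasts and 0.26 in Icam1+ preadipocytes, a difference of -0.42 (adjusted p = 0.0361). With cells classed by their own markers it was -0.21 (adjusted p = 0.340). All 3 calls were lost with equal thinned cells (adjusted p = 0.234, 0.142 and 0.101 for Slit2, Sema3c and Nrp1). With 1 library per group, no group was large enough to look for a single library that stands apart within it.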

How the results depend on the processing

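With 1 library per group, the tests lean on few residual degrees of freedom, and Slit2, Nrp2 and Sema3f in Cd142+ fibroblasts rest on 5 to 99 UMIs per library. No paired analysis was possible because the labels give no replicate numbers that groups share. Of the age effects on single genes recomputed under alternatives, 570 kept their side of the threshold, 56 lost it and 26 gained it. For the differences between populations these were 351, 17 and 9, and for temperature 600, 24 and 23, with 2 reversed. Both reversals came without aged TN, for the temperature effect on Sema3c in Icam1+ preadipocytes (-0.16, adjusted p = 0.00239) and SMC/pericytes (-0.85, adjusted p = 0.0300), where leaving out young TN instead gave 0.76 and 1.15. The cause of these changes was not tested. DESeq2 gave no adjusted p for 13 of 75 results.

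The number of members past the threshold for age in Dpp4+ fibroblasts, 3 as reported, was 5 at resolution 0.5, 5 with cells classed by their own markers and 5 with cluster 0, but 2 by DESeq2, 2 without temperature as a term and 2 with equal thinned cells, and 2 to 4 with 1 library left out. In Icam1+ preadipocytes, 5 became 1 without temperature as a term and 3 with equal thinned cells, and 3 to 6 with 1 library left out. In Cd142+ fibroblasts, 5 became 1 by DESeq2, 1 without temperature as a term, 0 with equal thinned cells and 3 with cells classed by their own markers, and 1 to 4 with 1 library left out. In endothelial cells, 1 became 0 without temperature as a term, 0 with equal thinned cells, 2 at resolution 0.5 and 0 with cells classed by their own markers, and 0 to 1 with 1 library left out. In SMC/pericytes, 0 became 1 with fixed limits on cells and 1 without doublets, and 0 to 1 with 1 library left out.

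For temperature, 2 in Dpp4+ fibroblasts became 0 by DESeq2, 5 with no filter on low counts, 0 without age as a term, 1 with equal thinned cells and 1 with cluster 0, and 0 to 4 with 1 library left out. In Icam1+ preadipocytes, 1 became 2 by DESeq2, 2 with no filter and 0 without age as a term, and 0 to 3 with 1 library left out. In endothelial cells, 1 became 2 with no filter and 0 by DESeq2, without age as a term, with equal thinned cells, with fixed limits, at resolution 0.5, without doublets and with cells classed by their own markers, and 0 to 2 with 1 library left out. In Cd142+ fibroblasts and SMC/pericytes, 0 became 0 to 2 with 1 library left out.

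For the difference between Icam1+ and Dpp4+ cells, 1 became 4 with no filter, 0 with equal thinned cells, 2 at resolution 0.5 and 2 with cells classed by their own markers, and 1 to 2 with 1 library left out. Between Cd142+ and Dpp4+ cells, 0 became 1 with no filter and 1 with cells classed by their own markers. Between Cd142+ and Icam1+ cells, 2 became 0 with equal thinned cells, 1 with fixed limits, 1 at resolution 0.5, 1 without doublets and 0 with cells classed by their own markers, and 0 to 1 with 1 library left out.

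Over all genes, age calls numbered 1683 in Dpp4+ (515 without temperature as a term to 2441 at resolution 0.5), 1885 in Icam1+ (325 without it to 2587 with no filter), 1379 in Cd142+ (412 to 1630), 135 in endothelial cells (5 to 474) and 28 in SMC/pericytes (0 to 275). Temperature calls numbered 664 (0 to 1724), 816 (0 to 2160), 359 (1 to 785), 125 (5 to 531) and 4 (0 to 241).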
